A study of Macaca mulatta with 12 samples.

Results

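Solute carriers are membrane proteins that move small molecules across the cell surface and the membranes of organelles. They were taken here as every row of the gene count table whose symbol begins with SLC, a family number and the letter A, and whose mean level over all 12 libraries was at least 5 CPM (counts per 1000000, the gene's count over the library's total). Of 310 rows with such a symbol, 184 lay below that level, and 3 that are described with other pathways (the glucose carrier SLC2A1, the lactate carrier SLC16A3 and the cystine carrier SLC7A11) were set apart. The remaining 123 rows included 4 that were kept out. SLC9A3R1 and SLC4A1AP name proteins that are no carriers, and the rows matched to SLC2A11 and SLC25A47 bear another gene's name in another source. Thus 119 carriers of 32386 rows in the table are described. The carriers were thus chosen by their mean level over all groups. No contrast between groups was part of that rule, but the members were chosen with earlier results of these data known. The carriers just inside the minimum were SLC25A45 at 5.20 CPM and SLC27A1 at 5.25 CPM, and those just outside were SLC66A3 at 4.81 CPM and SLC30A6 at 4.61 CPM.

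The libraries came from blood macrophages of rhesus macaques (Macaca mulatta), sorted as cells with CD14 and CD163 and without CD16. The animals had been transplanted with their own mobilized CD34+ cells after CRISPR/Cas9 treatment, and the title names TET2-mutant hematopoiesis; all 4 groups share this background, and no label gives the share of edited cells or the animals' ages. Early groups were sampled at 4.5 months and Late groups at 19 months after transplant. CTL wells were left unstimulated for 8 h and ACT wells received lipopolysaccharide (LPS) at 100 ng/ml with interferon-gamma at 20 ng/ml, at 250000 cells per well, although the treatment field names LPS alone. Each group, Early CTL, Early ACT, Late CTL and Late ACT, holds 3 libraries. The labels do not say whether these are animals or wells, so a p-value here reflects how far libraries of a group differed, possibly for technical reasons alone. Dates and batches are not labelled, so time after transplant and any processing batch cannot be told apart.

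Carriers differ by cargo. SLC1, SLC7 and SLC38 proteins take up amino acids, the SLC7 light chains working as dimers with the heavy chain SLC3A2. SLC39 (ZIP) proteins bring zinc and other metals into the cytosol while SLC30 (ZnT) proteins move zinc out of it, SLC11 proteins export iron and manganese from endosomes and phagosomes, and SLC25 proteins exchange metabolites, phosphate and iron across the inner mitochondrial membrane. In macrophages these proteins feed arginine and glutamine metabolism after activation, withhold metals from ingested microbes and recycle nucleosides and iron from digested cells.

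The gene table held between 3910680 and 12972505 counts per library. All 119 carriers passed the low-count filter, among 11826 genes tested by edgeR's quasi-likelihood test with Benjamini-Hochberg adjustment over all of these genes (adjusted p threshold 0.05). A fold change is on the log2 scale with its standard error and comes from that fit. Its scaling factors lay between 0.879 and 1.10, with the Early ACT libraries at the bottom, so a fold change there can differ from a ratio of CPM. The library Early ACT 1 stood apart from the other Early ACT libraries: the chi-square per degree of freedom over genes was 28.4 and 29.3 for its pairs and 2.82 for the other pair. Counts of calls and the called fold changes of the 119 carriers that rest on the Early ACT group are therefore given with and without it. All 4 groups share 1 estimate of the spread, so leaving it out also changes calls in the other comparisons. Of 10 macrophage and monocyte markers 9 were found, and their summed level was 12448 to 12874 CPM in Early CTL, 9475 to 10011 in Early ACT, 6460 to 7041 in Late CTL and 5962 to 6125 in Late ACT. CD14 (1376 to 2824 CPM) and CD163 (501.5 to 1338 CPM), on which the cells were sorted, were present in every library, while the macrophage mannose receptor MRC1 lay between 0.869 and 4.22 CPM and was called higher with time in unstimulated cells (1.22, adjusted p = 0.0312). FCGR3, the gene of CD16, had 27.4 to 49.8 CPM although the cells were sorted without CD16. It was not called with time (0.16 unstimulated, adjusted p = 0.414, and 0.16 stimulated, adjusted p = 0.400). Markers of T cells (4 of 6 found, at most 5.22 CPM summed), B cells (5 of 5, 6.80 CPM), platelets (4 of 5, 4.60 CPM) and erythroid cells (5 of 6, 3.86 CPM) were near 0, while 5 of 6 neutrophil markers summed to 700.6 to 744.7 CPM in Early CTL and 319.1 to 396.4 in Late ACT. Markers of dendritic cells (5 of 5) summed to between 56.5 and 91.3 CPM, of NK cells (3 of 5) to between 32.1 and 56.4 CPM, of endothelial cells (4 of 4) to between 28.8 and 108 CPM and of CD16 monocytes (3 of 4) to between 47.8 and 98.4 CPM. The NK sum was almost wholly NCAM1 (31.7 to 55.8 CPM), and the endothelial sum was mostly PECAM1 (21.1 to 102 CPM). CSF3R (244 to 606 CPM) and CAMP (63.8 to 146 CPM) made up most of the neutrophil sum, with MPO and ELANE at most 3.48 and 1.36 CPM. In the CD16 monocyte list LILRA3 was called lower with time (-1.97 unstimulated, -1.55 stimulated). Whether these sums reflect such cells was not tested. Among the macrophage and monocyte markers 8 of 9 were called lower with time in unstimulated and in stimulated cells (in unstimulated cells MRC1 was the ninth), and the part of these shifts in the carrier results with time was not tested. In bulk RNA, fewer cells of a type and less RNA per cell cannot be told apart.

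The 119 carriers fell into 15 classes by cargo: 21 carried metals, 21 were mitochondrial SLC25 proteins, 19 carried amino acids, 19 carried inorganic ions, 9 sugars, 5 nucleotide sugars, 5 vitamins and 2 nucleosides or nucleobases, and the others were spread over smaller classes. Summed over the metal carriers, the level was 4189.8 ± 126 CPM in Early CTL, 3497 ± 352 in Early ACT, 2773 ± 154 in Late CTL and 2749 ± 28.9 in Late ACT (mean ± SD, n = 3 libraries each, as for all such values). The sums of the 3 Late CTL libraries lay below those of all Early libraries, and so did the Late ACT sums. The nucleoside class went from 2042 ± 70.2 CPM in Early CTL and 1994 ± 271 in Early ACT to 1499.5 ± 50.4 in Late CTL and 1425 ± 68.5 in Late ACT. The SLC25 class summed to 1178 ± 23.9, 953 ± 33.5, 928 ± 33.5 and 859 ± 31.1 CPM in the same order of groups. All class sums are CPM without the scaling factors of the fit, which were lowest in Early ACT. Differences between the Early CTL and Early ACT sums are thus not fold changes of the fit. In that fit the median log2 fold change with early stimulation was -0.12 over the SLC25 carriers and 0.048 over the metal carriers. The amino acid class was high in Early ACT alone, at 3378 ± 378 CPM against 2945 ± 28.6 in Early CTL, 2955 ± 111 in Late CTL and 2937 ± 81.1 in Late ACT, and Early ACT 1 was the highest of its libraries. In Early ACT 1 alone the sums were 3096 CPM for metals, 2306 for nucleosides, 991 for SLC25 and 3813 for amino acids. The other Early ACT libraries had 3644 and 3752, 1853 and 1823, 939 and 929, and 3135 and 3186 CPM. A few genes carry these sums: SLC39A8 and SLC11A1 for metals, SLC3A2, SLC1A5 and SLC38A1 for amino acids, SLC43A3 for nucleosides, and SLC25A3 and SLC25A43 for mitochondria. The glucose carrier SLC2A3 had 3319.9 to 3489 CPM in Early CTL, 2676 to 3174 in Early ACT, 3188 to 3636 in Late CTL and 3276 to 3316 in Late ACT and was called in no comparison, although its reads can be shared with the near-identical SLC2A14. CPM is not scaled to gene length, so levels are compared between groups and not between genes.

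Between 4.5 and 19 months, carriers of every main class were called. In unstimulated cells 24 of 119 carriers (20.2%) rose and 35 (29.4%) fell, beside 20.9% higher and 19.8% lower among all genes tested (40.7% in either direction). In stimulated cells 14 (11.8%) rose and 38 (31.9%) fell, beside 19.1% higher and 19.7% lower among all genes (38.8% in either direction). The members' median log2 fold change was -0.09 in unstimulated and -0.13 in stimulated cells, beside 0.02 and 0.04 over all genes. By abundance, of 26 carriers above 100 CPM, 13 fell in unstimulated and 17 in stimulated cells, against 30% and 40.4% of all genes at that level. Of 50 carriers between 5 and 20 CPM, 13 and 9 fell, against 23.4% and 19% of all genes there, and of 43 between 20 and 100 CPM, 9 and 12 fell, against 28.9% and 29.9%. The carriers that rose numbered 4 and 2 above 100 CPM (23.1% and 13.4% of all genes), 11 and 6 between 20 and 100 CPM (17.4% and 16.4%), and 9 and 6 between 5 and 20 CPM (14.1% and 15.7%). The 2 time comparisons share no library: 29 carriers (24.4%) fell in both and 11 (9.24%) rose in both, beside 14.4% and 13.4% of all genes tested. SLC3A2 was the 1 carrier that rose in one and fell in the other. With upper-quartile scaling, which moved the median of all genes to 0.15 in both comparisons, the split became 32 higher and 30 lower in unstimulated cells and 24 higher and 33 lower in stimulated cells. Under that scaling 26.2% of all genes were higher and 15.2% lower in unstimulated cells (41.3% in either direction), and 24.4% and 15.6% in stimulated cells (40%). Without Early ACT 1, 14 carriers rose and 36 fell in stimulated cells, beside 18.3% and 18.7% of the genes then tested (37% in either direction). In unstimulated cells 29 carriers then rose and 43 fell, beside 26% and 22.9% of those genes (48.9% in either direction). The stimulated calls named in the following paragraphs held without that library, except where stated.

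**Figure D1:**
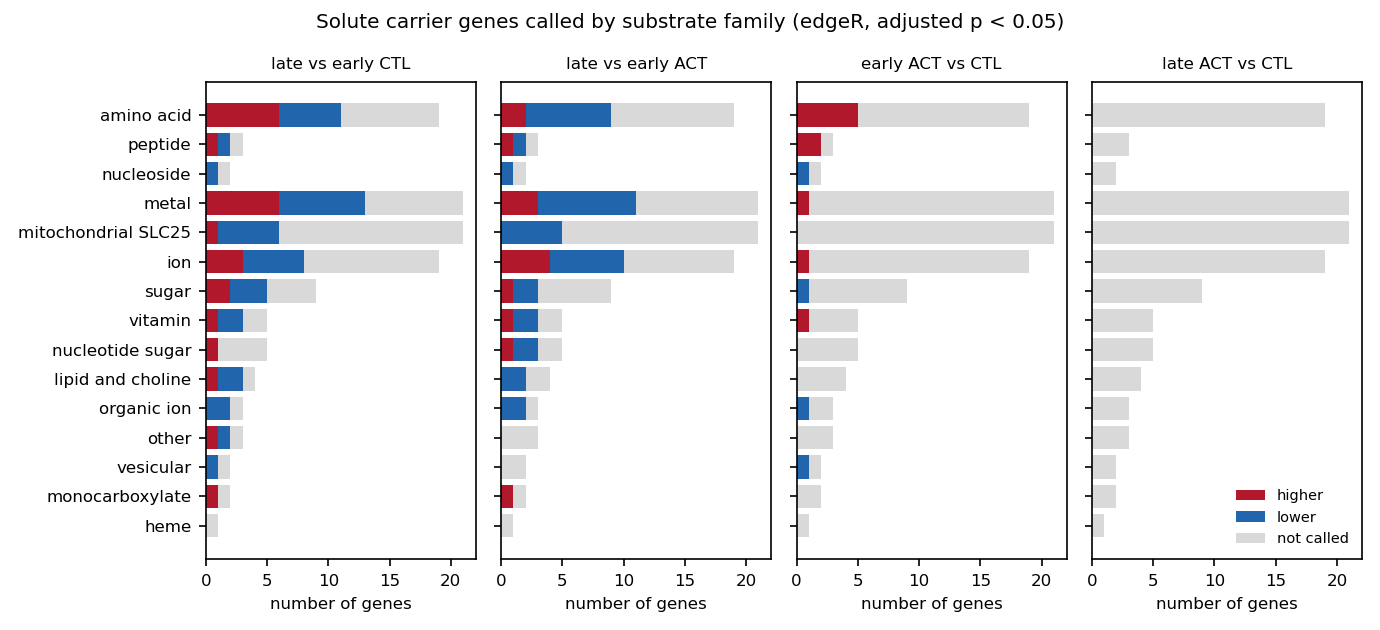
Number of carriers (x axis) called higher, lower or not called in each substrate class (y axis) in the 4 comparisons of 2 groups, by edgeR's quasi-likelihood test at an adjusted p of 0.05. Calls in both directions fill the time comparisons, 5 amino acid carriers are higher after stimulation at 4.5 months, and no carrier is called after stimulation at 19 months.

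Among the 19 amino acid carriers, 6 rose (31.6%) and 5 fell (26.3%) with time in unstimulated cells, beside 20.9% and 19.8% of all genes tested. In stimulated cells 2 rose (10.5%) and 7 fell (36.8%), beside 19.1% and 19.7%. SLC43A2, a uniporter of branched-chain and aromatic amino acids (on build Mmul_8.0.1, as for all positions, chromosome 16, 1463383 to 1521225 in the authors' deposited table), had 289, 304 and 282 CPM in the 3 Early CTL libraries and 86.7, 89.7 and 78.8 in Late CTL. It had 222, 156 and 153 CPM in Early ACT and 65.5, 71.5 and 92.6 in Late ACT. Every Late library lay below every Early one, with log2 fold changes of -1.68 ± 0.15, adjusted p = 3.07e-09 in unstimulated cells and -1.35 ± 0.15, adjusted p = 1.46e-07 in stimulated cells. SLC7A7, the light chain that exports basic amino acids, also fell in both (-0.99 ± 0.15, adjusted p = 9.03e-06, and -1.02 ± 0.15, adjusted p = 7.31e-06). The glutamine carrier SLC38A5 was low throughout (7.79 to 11.8 CPM in Early CTL, 4.09 to 6.32 in Late CTL) and fell with a log2 fold change of -1.07 ± 0.26 in stimulated cells (adjusted p = 0.00197). In unstimulated cells SLC38A5 fell too (adjusted p = 0.0101). The SLC38A5 call was lost without Early CTL 2 or Late CTL 2 (adjusted p 0.0522 to 0.0628). SLC36A1, the lysosomal proton-coupled exporter of small amino acids, fell in unstimulated cells, from 24.3, 22.5 and 20.4 CPM to 13.3, 9.80 and 9.87 (-0.95 ± 0.21, adjusted p = 0.0007). In stimulated cells its groups overlapped (-0.32, adjusted p = 0.228). SLC38A10 fell in both (-0.66, adjusted p = 0.00411, and -0.55, adjusted p = 0.0138), although the unstimulated fold change was -0.44 without Late CTL 3, and the stimulated call was lost without Late ACT 1 (adjusted p 0.0507). Without Early ACT 1 the stimulated fold changes with time were -1.17 for SLC43A2, -0.97 for SLC7A7, -0.99 for SLC38A5 and -0.44 for SLC38A10 (adjusted p 1.17e-13 to 0.0176).

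The risers among amino acid carriers were led in unstimulated cells by SLC16A10, the aromatic amino acid carrier TAT1, with 8.81, 12.9 and 11.2 CPM in Early CTL and 27.1, 20.95 and 19.9 in Late CTL (1.11 ± 0.25, adjusted p = 0.000811). SLC1A3, a glutamate and aspartate importer, had 27.5, 26.7 and 29.4 CPM in Early CTL and 49.9, 47.9 and 47.97 in Late CTL, groups that did not overlap (0.89 ± 0.14, adjusted p = 1.74e-05). It rose in stimulated cells too (0.48 ± 0.13, adjusted p = 0.00679; 0.40, adjusted p = 0.00957 without Early ACT 1). The SLC1A3 call was lost without Late ACT 1 (adjusted p 0.0513). SLC38A6 rose in unstimulated cells (0.77 ± 0.18, adjusted p = 0.00104) and so did the neutral amino acid exchanger SLC1A4 (0.48 ± 0.13, adjusted p = 0.0058). In stimulated cells SLC38A9, the lysosomal arginine sensor, went from 4.13, 11.1 and 16.4 CPM to 23.6, 24.4 and 20.6 (0.87 ± 0.25, adjusted p = 0.00784). The lowest of those libraries, Early ACT 1, is the one that stood apart, and the fold change without it was 0.58, adjusted p = 0.0106. The glutamine importer SLC38A1, the taurine carrier SLC6A6 and the lysosomal cationic amino acid exporter SLC66A1 passed in neither comparison. SLC38A1 did pass in unstimulated cells with a fit of the compared groups alone and without Early ACT 1 (adjusted p 0.0197 to 0.0415).

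Metal carriers moved in both directions, with the phagosomal exporter SLC11A1 and the importer SLC39A8 among the genes that fell and the Golgi zinc carriers SLC30A5 and SLC30A7 among those that rose. Of 21, 6 rose (28.6%) and 7 fell (33.3%) in unstimulated cells, beside 20.9% and 19.8% of all genes tested. In stimulated cells 3 rose (14.3%) and 8 fell (38.1%), beside 19.1% and 19.7%. SLC11A1 (NRAMP1, chromosome 12, 100486645 to 100503010 in the authors' deposited table), the phagosomal metal exporter, had 696, 702 and 679 CPM in Early CTL, 607, 488 and 501 in Early ACT, 219, 216 and 209.6 in Late CTL and 174, 184 and 209 in Late ACT. No Late library reached any Early one, and SLC11A1 had the smallest adjusted p of all carriers in both comparisons (-1.59 ± 0.12, adjusted p = 1.34e-10 unstimulated, and -1.64 ± 0.12, adjusted p = 1.16e-10 stimulated; -1.54, adjusted p = 3.98e-22 without Early ACT 1). SLC39A8 (ZIP8, chromosome 5, 101096774 to 101190708 in the authors' deposited table), an importer of zinc and manganese, had 1809, 1814 and 1662 CPM in Early CTL and 1001, 1087 and 925 in Late CTL (-0.72 ± 0.13, adjusted p = 0.000119). Its stimulated libraries had 984, 1542 and 1611 CPM in Early ACT and 1019.9, 990.3 and 989 in Late ACT. Only Early ACT 1 overlapped the Late values, and the log2 fold change was -0.61 ± 0.13, adjusted p = 0.000719 with it and -0.81, adjusted p = 2.91e-13 without it.

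Further metal carriers fell in both comparisons. SLC39A1, a zinc importer of the cell surface, fell with log2 fold changes of -0.49 ± 0.11 and -0.53 ± 0.11 (adjusted p = 0.00147 and 0.000776). SLC39A13, which supplies zinc within the secretory pathway, fell with log2 fold changes of -0.56 ± 0.13 and -0.57 ± 0.13 (adjusted p = 0.000997 and 0.000951). SLC31A2, a copper transporter of endosomes and lysosomes, fell with log2 fold changes of -0.62 ± 0.11 and -0.59 ± 0.11 (adjusted p = 0.000126 and 0.000273). SLC39A7, the zinc exit route of the endoplasmic reticulum, fell in stimulated cells (-0.50, adjusted p = 0.00556). In unstimulated cells SLC39A7 did not pass in the main fit (-0.34, adjusted p = 0.0517) and passed in 7 alternatives (adjusted p 0.00923 to 0.0494). SLC11A2 (DMT1), the endosomal iron exporter, went from 611, 575 and 580.3 CPM to 459.6, 464 and 461 in stimulated cells (-0.50 ± 0.10, adjusted p = 0.000457). In unstimulated cells it also fell (-0.26 ± 0.10, adjusted p = 0.0447). The SLC11A2 call was lost with RLE factors, upper-quartile factors or the replicate block and without Early CTL 1, Early CTL 2, Early CTL 3, Late CTL 1, Late CTL 2, Late CTL 3, Late ACT 2 or Late ACT 3 (adjusted p 0.0501 to 0.313). SLC39A11 fell in unstimulated cells (-1.05, adjusted p = 0.00233) and did not pass in stimulated cells (-0.23, adjusted p = 0.488), a difference between the comparisons that did not pass its own test (0.83, adjusted p = 0.378). The copper importer SLC31A1 fell in stimulated cells (-0.36, adjusted p = 0.0315). The SLC31A1 call was lost with upper-quartile factors or a fit of the compared groups alone and without Early ACT 3, Late ACT 1 or Late ACT 3 (adjusted p 0.0509 to 0.125). Without Early ACT 1 the stimulated log2 fold changes with time were -0.52 for SLC39A1, -0.48 for SLC39A13, -0.63 for SLC31A2, -0.44 for SLC39A7, -0.48 for SLC11A2 and -0.31 for SLC31A1 (adjusted p 4.08e-07 to 0.0342).

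Among the zinc exporters SLC30A5 and SLC30A7, both of the Golgi, rose. SLC30A5 (ZnT5) had 70.5, 69.1 and 70.7 CPM in Early CTL and 126, 142 and 108 in Late CTL, groups that did not overlap (0.93 ± 0.16, adjusted p = 4.18e-05). Its stimulated libraries had 44.98, 81.8 and 81.2 CPM in Early ACT, the low value being Early ACT 1, and 124, 116 and 119.5 in Late ACT (0.63 ± 0.15, adjusted p = 0.00251, and 0.40, adjusted p = 0.0014 without Early ACT 1). SLC30A7 (ZnT7) rose with log2 fold changes of 0.79 ± 0.16 and 0.62 ± 0.16 (adjusted p = 0.00029 and 0.00297; stimulated 0.37, adjusted p = 0.000899 without Early ACT 1). The magnesium carrier SLC41A2 rose with log2 fold changes of 0.62 ± 0.17 and 0.68 ± 0.17 (adjusted p = 0.00457 and 0.00243; stimulated 0.50, adjusted p = 0.00485 without Early ACT 1). SLC41A1, which exports magnesium, rose in unstimulated cells (0.62, adjusted p = 0.0135). The SLC41A1 call was lost without Early CTL 2 or Late CTL 2 (adjusted p 0.0658 to 0.0678). SLC39A9 rose there as well (0.42, adjusted p = 0.00999). The SLC39A9 call was lost with no filter on low counts and without Early CTL 1 or Early CTL 3 (adjusted p 0.0554 to 0.0685). The inflammation-responsive importer SLC39A14 rose from 16.01, 17.1 and 18.2 CPM in Early CTL to 30.2, 35.2 and 30.4 in Late CTL (0.99 ± 0.16, adjusted p = 1.9e-05). Ferroportin, SLC40A1, the cell's iron exporter, lay at 8.25 to 14.2, 7.39 to 10.6, 9.25 to 13.3 and 10.96 to 11.9 CPM in Early CTL, Early ACT, Late CTL and Late ACT and passed in no comparison. SLC39A6, SLC39A10, SLC30A4, SLC30A9 and SLC41A3 passed in neither time comparison of the main fit either. Their log2 fold changes ran from -0.52 to 0.30 in unstimulated cells and from -0.25 to 0.32 in stimulated cells. SLC39A10 passed in 6 alternatives in unstimulated cells (adjusted p 0.00117 to 0.0495) and without Early ACT 1 in stimulated cells (adjusted p 0.0173). SLC30A9 passed in 2 alternatives in unstimulated cells (adjusted p 0.0323 to 0.0429).

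Of 21 mitochondrial SLC25 carriers, 1 rose (4.76%) and 5 fell (23.8%) in unstimulated cells, beside 20.9% and 19.8% of all genes tested. In stimulated cells 0 rose and 5 fell (23.8%), beside 19.1% and 19.7%, so the shares of lower calls were close to those of all genes. The same 5 fell in both, and they are carriers of iron, glutathione, oxoglutarate or citrate. Mitoferrin 1, SLC25A37 (chromosome 8, 23534053 to 23582063 in the authors' deposited table), had 199, 189 and 191 CPM in Early CTL, 173, 160.0 and 157 in Early ACT, 95.1, 102 and 96.6 in Late CTL and 92.1, 89.2 and 99.1 in Late ACT. Mitoferrin 2, SLC25A28, had 141, 150.5 and 141 CPM in Early CTL, 123, 91.04 and 97.03 in Early ACT, 71.9, 67.2 and 80.98 in Late CTL and 66.3, 68.5 and 68.5 in Late ACT. For both iron importers all Late libraries lay below all Early ones (SLC25A37 -0.88 ± 0.11, adjusted p = 9.13e-07 unstimulated, and -0.95 ± 0.11, adjusted p = 3.89e-07 stimulated; SLC25A28 -0.88 ± 0.13, adjusted p = 9.03e-06, and -0.76 ± 0.13, adjusted p = 7.22e-05). SLC25A39, the importer of glutathione, fell with log2 fold changes of -0.87 ± 0.27 and -0.88 ± 0.28 (adjusted p = 0.0129 and 0.0164). Those calls were lost without Early CTL 3 or Late CTL 2 (adjusted p 0.0603 to 0.114) in unstimulated cells and without Late ACT 2 (adjusted p 0.0757) in stimulated cells, and the unstimulated log2 fold change was -0.57 without Late CTL 2. The oxoglutarate carrier SLC25A11, at most 10.3 CPM in any library, fell with log2 fold changes of -0.91 ± 0.29 and -1.40 ± 0.30 (adjusted p = 0.0131 and 0.000693), the first lost without Early CTL 3, Late CTL 2 or Late CTL 3 (adjusted p 0.0545 to 0.0725). The citrate exporter SLC25A1 had 32.5, 35.6 and 25.7 CPM in Early CTL and 19.9, 17.96 and 21.3 in Late CTL, then 21.1, 20.97 and 21.6 in Early ACT and 15.1, 14.1 and 13.8 in Late ACT (-0.57 ± 0.16, adjusted p = 0.00742, and -0.71 ± 0.17, adjusted p = 0.00154), the first call lost without Early CTL 2 (adjusted p 0.0539). SLC25A27 was the riser in unstimulated cells (0.65 ± 0.22, adjusted p = 0.0233). The SLC25A27 call was lost with no filter on low counts and without Early CTL 1, Early CTL 3 or Late CTL 3 (adjusted p 0.0642 to 0.0893). The phosphate carrier SLC25A3, which feeds ATP synthesis, had 228 to 279 CPM in Early CTL and 239 to 282 in Late CTL, overlapping groups (0.13, adjusted p = 0.435). The adenine nucleotide exchanger SLC25A4 (-0.10, adjusted p = 0.731), the aspartate and glutamate carriers SLC25A12 (0.48, adjusted p = 0.134) and SLC25A13 (-0.45, adjusted p = 0.0812) and the dicarboxylate carrier SLC25A10 (-0.43, adjusted p = 0.109) also did not pass there. SLC25A13 passed without Early ACT 1 (adjusted p 0.0309) and SLC25A10 without Late CTL 3 (adjusted p 0.0256). Reads of SLC25A4 and SLC25A52 can be shared with close copies, so their counts are less certain. With Early ACT 1 left out, the stimulated fold changes with time were -0.92 for SLC25A37, -0.63 for SLC25A28, -0.67 for SLC25A39, -1.27 for SLC25A11 and -0.72 for SLC25A1 (adjusted p 4.23e-12 to 0.0442).

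**Figure D2:**
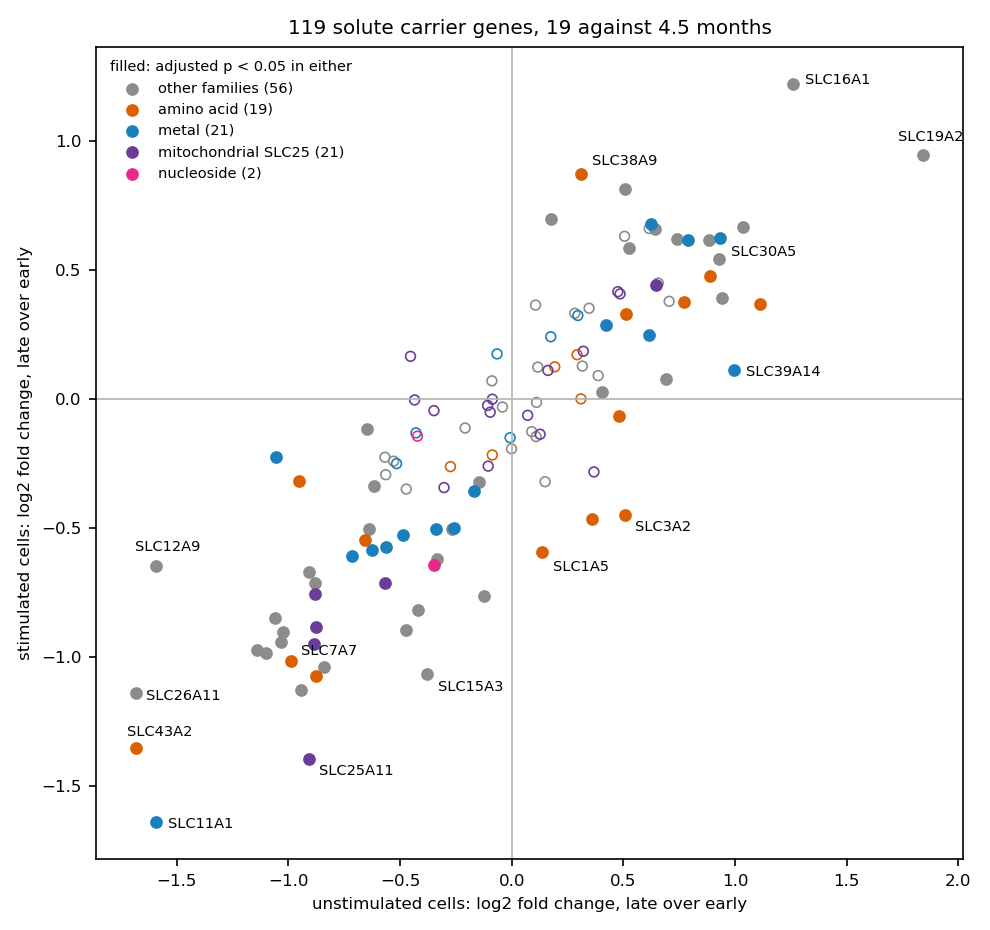
Log2 fold change of 19 over 4.5 months for each of the 119 carriers in unstimulated cells (x axis) and in stimulated cells (y axis); colours mark the substrate class and filled points are past an adjusted p of 0.05 in at least one comparison. SLC11A1, SLC43A2 and SLC26A11 lie far to the lower left, SLC19A2 and SLC16A1 to the upper right, and SLC3A2 in the lower right quadrant.

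The nucleoside and nucleobase class has only 2 expressed members. SLC43A3, which carries purine nucleobases, had 1946, 1959 and 2058 CPM in Early CTL, 2267, 1827 and 1796 in Early ACT, 1468, 1414 and 1503 in Late CTL and 1318, 1418 and 1448 in Late ACT. Every Late library was below every Early one, with log2 fold changes of -0.65 ± 0.11, adjusted p = 7.56e-05 in stimulated cells (-0.53, adjusted p = 2.16e-08 without Early ACT 1) and -0.35 ± 0.11, adjusted p = 0.0138 in unstimulated cells, the latter lost with upper-quartile factors and without Early CTL 3 or Late CTL 2 (adjusted p 0.0504 to 0.123). SLC29A3, the lysosomal nucleoside exporter ENT3, had 47.1, 51.5 and 64.6 CPM in Early CTL and 32.99, 34.8 and 46.3 in Late CTL without overlap. Its fold change of -0.42 ± 0.17 did not pass in the main fit (adjusted p = 0.0542) and passed in 7 alternatives (adjusted p 0.00471 to 0.0402).

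Among the remaining classes, the largest rise with time in unstimulated cells belonged to SLC19A2, the thiamine importer THTR1 (chromosome 1, 198138670 to 198156510 in the authors' deposited table). It had 20.98, 24.6 and 28.2 CPM in Early CTL and 73.9, 84.2 and 91.5 in Late CTL (1.84 ± 0.17, adjusted p = 5.93e-09). With stimulation it went from 23.03, 42.4 and 37.03 CPM at 4.5 months to 79.7, 72.5 and 70.7 at 19 months (0.94 ± 0.16, adjusted p = 7.76e-05). SLC16A1 (MCT1), a carrier of lactate and other monocarboxylates, rose with log2 fold changes of 1.26 ± 0.26 and 1.22 ± 0.26 (adjusted p = 0.00047 and 0.000585), with 4.00 to 6.33 CPM in Early CTL and 10.1 to 13.8 in Late CTL. SLC15A2, a di- and tripeptide importer, rose with log2 fold changes of 1.04 ± 0.18 and 0.67 ± 0.17 (adjusted p = 9.06e-05 and 0.0041). SLC15A3, a peptide and histidine exporter of endolysosomes, fell in stimulated cells, from 167, 129 and 133 CPM to 67.9, 77.6 and 80.9 (-1.07 ± 0.14, adjusted p = 1.81e-06). In unstimulated cells it fell by less (-0.38 ± 0.14, adjusted p = 0.0322). The SLC15A3 call was lost with RLE factors, upper-quartile factors or DESeq2 and without Early CTL 1, Early CTL 2, Early CTL 3, Late CTL 1 or Late CTL 2 (adjusted p 0.0513 to 0.166). The fructose carrier SLC2A5 rose in both (0.52, adjusted p = 0.00664, and 0.58, adjusted p = 0.00316), and the creatine importer SLC6A8 rose in unstimulated cells (0.94, adjusted p = 0.00027; stimulated 0.39, adjusted p = 0.0897). With Early ACT 1 left out, the stimulated fold changes with time were 0.75 for SLC19A2, 1.06 for SLC16A1, 0.52 for SLC15A2, -0.95 for SLC15A3, 0.76 for SLC2A5 and 0.45 for SLC6A8 (adjusted p 2.17e-10 to 0.0422), where SLC6A8 passed as well.

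Ion carriers were called in both directions. The sodium and bicarbonate cotransporter SLC4A7 had 453, 493 and 425 CPM in Early CTL and 749, 734 and 665 in Late CTL (0.74 ± 0.14, adjusted p = 0.000201), and it rose in stimulated cells by 0.62 ± 0.14 (adjusted p = 0.00129; 0.40, adjusted p = 6.95e-05 without Early ACT 1). The potassium and chloride cotransporters SLC12A7 and SLC12A4 fell in both: SLC12A7 with log2 fold changes of -0.88 ± 0.14 and -0.71 ± 0.14 (adjusted p = 2.56e-05 and 0.000335), and SLC12A4 with -0.94 ± 0.17 and -1.13 ± 0.17 (adjusted p = 0.000119 and 1.18e-05). The anion exchangers SLC26A11 and SLC26A6 also fell in both. SLC26A11 had 19.4, 23.9 and 19.9 CPM in Early CTL and 6.39, 6.39 and 5.71 in Late CTL (-1.68 ± 0.22, adjusted p = 1.19e-06), and 19.3, 14.4 and 13.2 in Early ACT and 7.99, 6.66 and 8.41 in Late ACT (-1.14 ± 0.21, adjusted p = 0.000119). SLC26A6 fell with log2 fold changes of -0.84 ± 0.17 and -1.04 ± 0.17 (adjusted p = 0.000315 and 3.72e-05). Phosphate importers of the SLC20 family rose in unstimulated cells, SLC20A1 by 0.40 ± 0.11 and SLC20A2 by 0.93 ± 0.20 (adjusted p = 0.00422 and 0.000591). Further falls in both comparisons came from SLC10A3 (-1.03, adjusted p = 5.18e-06, and -0.94, adjusted p = 1.86e-05), the choline-like carrier SLC44A2 (-1.02, adjusted p = 0.00125, and -0.91, adjusted p = 0.00294), the cation extruder SLC47A1 (-1.10, adjusted p = 0.00011, and -0.99, adjusted p = 0.000319), the ergothioneine importer SLC22A4 (-0.42, adjusted p = 0.00521, and -0.82, adjusted p = 5.56e-06) and SLC46A2 (-0.91, adjusted p = 8.57e-05, and -0.67, adjusted p = 0.00172). Leaving out Early ACT 1 gave stimulated fold changes of -0.58 for SLC12A7, -0.99 for SLC12A4, -0.99 for SLC26A11, -1.05 for SLC26A6 and -0.88 for SLC10A3 (adjusted p 5.02e-07 to 0.000127). The same setting gave -0.97 for SLC44A2, -0.98 for SLC47A1, -0.82 for SLC22A4 and -0.55 for SLC46A2 (adjusted p 5.68e-10 to 0.0026).

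Nucleotide sugar carriers, which load the Golgi for glycosylation, had 1 rise in each time comparison. It was SLC35A1, the CMP-sialic acid carrier (0.64 ± 0.21, adjusted p = 0.0149 unstimulated, and 0.66 ± 0.20, adjusted p = 0.0111 stimulated), whose calls were lost without Early CTL 1, Early CTL 2 or Late CTL 3 (adjusted p 0.051 to 0.0623) and without Late ACT 3 (adjusted p 0.0987). The UDP-galactose carrier SLC35A2 and SLC35A4 fell in stimulated cells (-0.50, adjusted p = 0.0212, and -0.32, adjusted p = 0.0399), with -0.33, adjusted p = 0.0736, and -0.21, adjusted p = 0.0746 without Early ACT 1. The SLC35A2 call was lost with upper-quartile factors or a fit of the compared groups alone and without Early ACT 1, Late ACT 1 or Late ACT 3 (adjusted p 0.0564 to 0.1). The SLC35A4 call was lost with RLE factors, upper-quartile factors, the replicate block or a fit of the compared groups alone and without Early ACT 1, Late ACT 1 or Late ACT 2 (adjusted p 0.0592 to 0.165). Among sugar carriers SLC37A2, a sugar-phosphate exchanger of the endoplasmic reticulum, fell with time in unstimulated cells (-0.65 ± 0.13, adjusted p = 0.000378) and had overlapping groups in stimulated cells (-0.12, adjusted p = 0.507). SLC2A6, a hexose carrier of lysosomes, had 387, 282 and 291 CPM in Early ACT and 153, 194 and 224 in Late ACT (-0.90 ± 0.19, adjusted p = 0.000774; -0.74, adjusted p = 0.0705 without Early ACT 1, where the call was lost). The ion carrier SLC12A9 had 17.9, 11.1 and 11.00 CPM in Early CTL and 3.58, 4.63 and 3.86 in Late CTL (-1.59 ± 0.33, adjusted p = 0.000413), while its stimulated groups overlapped (-0.65, adjusted p = 0.0968). The sulfate carrier SLC26A2 rose in stimulated cells (0.81, adjusted p = 0.00896; 0.51, adjusted p = 0.101 unstimulated). The anion exchanger SLC4A2 fell in stimulated cells (-0.62, adjusted p = 0.00654; -0.39, adjusted p = 0.0239 without Early ACT 1). In all, 49 of the 119 carriers passed in neither time comparison. Leaving out Early ACT 1 gave stimulated fold changes of 0.50 for SLC35A1 and 0.59 for SLC26A2 (adjusted p 0.0252 to 0.0317).

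At 4.5 months, 8 h of LPS and interferon-gamma raised 10 carriers of 119 (8.40%) and lowered 4 (3.36%), beside 4.57% higher and 2.66% lower among all genes tested (7.23% in either direction). Of 26 carriers above 100 CPM, 4 rose, against 14.9% of all genes at that level, and of 43 between 20 and 100 CPM, 6 rose, against 5.79% of all genes there. Of 50 between 5 and 20 CPM, 0 rose, against 2.53%. Of the 10 that rose, 5 carry amino acids, out of 19 in that class, and no amino acid carrier fell. SLC3A2 (chromosome 14, 11412536 to 11444964 in the authors' deposited table), the heavy chain of the heteromeric amino acid carriers, had 559.9, 565 and 599.5 CPM in Early CTL and 1213, 792 and 816 in Early ACT. All stimulated libraries lay above the unstimulated ones, with Early ACT 1 the highest, and the rise was 0.99 ± 0.14, adjusted p = 1.72e-05 (0.75, adjusted p = 2.15e-11 without Early ACT 1). SLC7A1, the arginine and lysine importer CAT1, had 101, 76.1 and 64.2 CPM and 176, 129 and 133 CPM in the same groups (1.14 ± 0.16, adjusted p = 2.62e-05; 0.99, adjusted p = 0.000308 without Early ACT 1). SLC1A5 (ASCT2, chromosome 19, 42105474 to 42123468 in the authors' deposited table), the glutamine exchanger, had 710.0, 681 and 673 CPM and 1191, 825 and 812 CPM (0.73 ± 0.13, adjusted p = 0.000466; 0.52, adjusted p = 6.31e-07 without Early ACT 1). Its sister SLC1A4 rose by 0.77 ± 0.13 (adjusted p = 0.000301; 0.79, adjusted p = 7.84e-07 without Early ACT 1). SLC1A3 rose by 0.56 ± 0.14 (adjusted p = 0.0113; 0.61, adjusted p = 0.000444 without Early ACT 1). The SLC1A3 call was lost with a fit of the compared groups alone and without Early CTL 1, Early CTL 2 or Early ACT 3 (adjusted p 0.052 to 0.0794). SLC7A5, the usual light-chain partner of SLC3A2, was not analysed here, because no row of the table could be matched to it by name.

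Of the metal carriers only SLC39A14 was called after early stimulation. It had 16.01, 17.1 and 18.2 CPM in Early CTL and 24.6, 23.8 and 29.998 in Early ACT, without overlap (0.89 ± 0.15, adjusted p = 0.000356; 0.91, adjusted p = 1.04e-05 without Early ACT 1). Of 3 peptide carriers 2 rose: SLC15A3 from 112, 117 and 111 CPM to 167, 129 and 133 (0.61 ± 0.14, adjusted p = 0.00519), and SLC15A2 by 0.78 ± 0.18 (adjusted p = 0.00716), the latter lost with a fit of the compared groups alone and without Early CTL 1 (adjusted p 0.0607 to 0.0752). The thiamine importer SLC19A2 rose by 0.77 ± 0.17 (adjusted p = 0.00466) although the CPM of Early ACT 1 (23.03 to 42.4 CPM over the group) reached into the Early CTL range, and the call was lost with a fit of the compared groups alone and without Early CTL 1 or Early ACT 2 (adjusted p 0.0501 to 0.0668). With Early ACT 1 left out, the early stimulation values were 0.47 for SLC15A3, 0.91 for SLC15A2 and 0.94 for SLC19A2 (adjusted p 1.32e-07 to 0.00083).

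The 4 carriers that fell belong to 4 classes. SLC37A2 had 95.1, 79.1 and 85.6 CPM in Early CTL and 50.4, 42.4 and 46.00 in Early ACT (-0.63 ± 0.13, adjusted p = 0.00243), a call kept in all 18 alternatives. SLC29A3 went from 47.1, 51.5 and 64.6 CPM to 39.1, 26.1 and 27.2 (-0.58 ± 0.17, adjusted p = 0.0408). The SLC29A3 call was lost with upper-quartile factors, the replicate block or a fit of the compared groups alone and without Early CTL 2, Early CTL 3, Early ACT 2, Early ACT 3, Late ACT 1, Late ACT 2 or Late ACT 3 (adjusted p 0.0526 to 0.248). SLC22A15, a carrier of zwitterions, fell with a log2 fold change of -0.87 ± 0.24 (adjusted p = 0.0271). The SLC22A15 call was lost with a fit of the compared groups alone and without Early CTL 2, Early CTL 3, Early ACT 2 or Early ACT 3 (adjusted p 0.053 to 0.162). SLC17A5, the lysosomal sialic acid exporter, fell with a log2 fold change of -0.49 ± 0.14 (adjusted p = 0.0336). The SLC17A5 call was lost with the replicate block or a fit of the compared groups alone and without Early CTL 1, Early CTL 2, Early CTL 3, Early ACT 2, Late ACT 2 or Late ACT 3 (adjusted p 0.0504 to 0.136). No SLC25 carrier was called, with log2 fold changes from -0.57 for SLC25A10 to 0.34 for SLC25A12 and a class median of -0.12. With Early ACT 1 left out, the early stimulation values were -0.70 for SLC37A2, -0.78 for SLC29A3, -1.02 for SLC22A15 and -0.33 for SLC17A5 (adjusted p 7.86e-06 to 0.0282).

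Without Early ACT 1, early stimulation called 20 carriers higher and 8 lower, beside 7.62% higher and 4.74% lower among the genes then tested (12.4% in either direction). All 14 calls of the full set were among them. The 10 added risers included 4 amino acid carriers, SLC38A1 (0.33, adjusted p = 0.00267), SLC38A2 (0.40, adjusted p = 0.00488), SLC38A6 (0.60, adjusted p = 0.0116) and SLC16A10 (0.59, adjusted p = 0.0339). The metal carriers SLC30A5 (0.48, adjusted p = 0.000464), SLC30A7 (0.49, adjusted p = 3.9e-05) and SLC11A2 (0.24, adjusted p = 0.0248) and the bicarbonate carrier SLC4A7 (0.57, adjusted p = 1.57e-07) were added too. The added falls were SLC43A2 (-0.65, adjusted p = 1.77e-06), SLC36A1 (-0.64, adjusted p = 0.0235), SLC25A28 (-0.35, adjusted p = 0.0102) and SLC25A39 (-0.77, adjusted p = 0.031). In the other direction, leaving out Early CTL 1 brought the risers to 6, and leaving out Early CTL 2, Early CTL 3 or Early ACT 2 brought the falls to 1, as did a fit of the compared groups alone, which called 6 higher. Leaving out Late ACT 2 or Late ACT 3 brought the falls to 2.

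**Figure D3:**
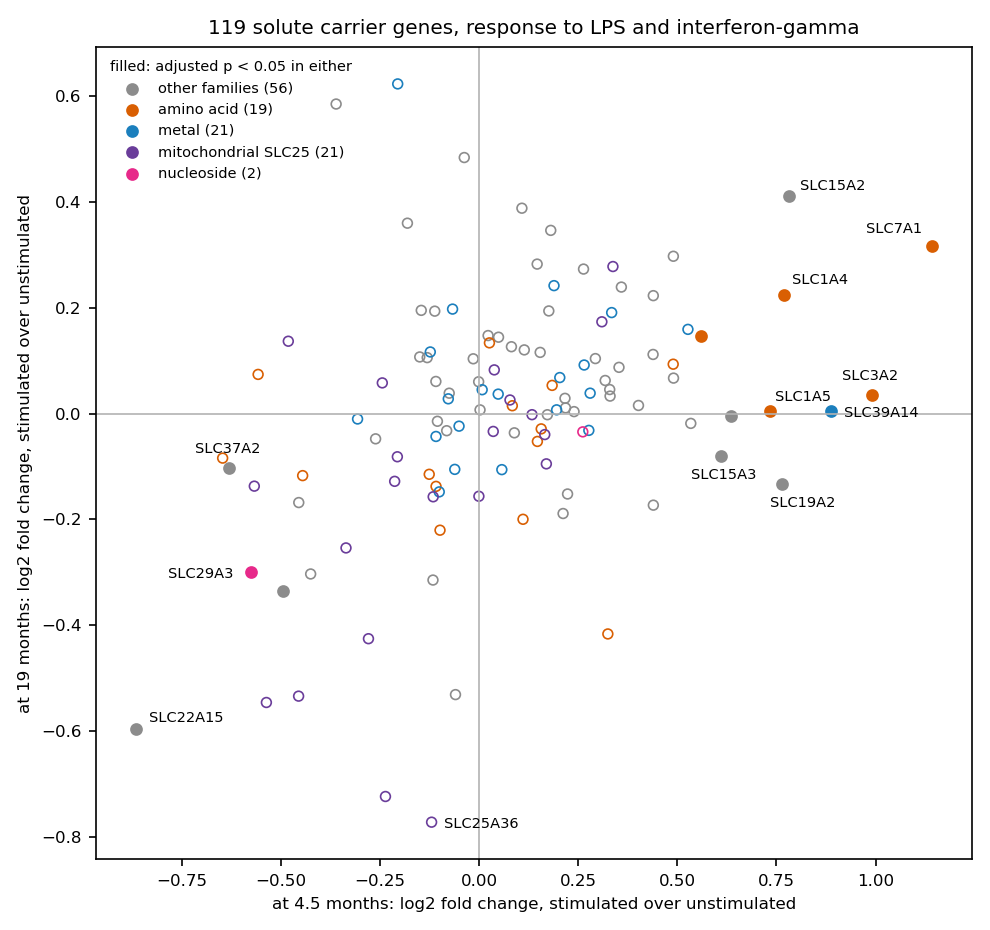
Log2 fold change of stimulated over unstimulated cells for each of the 119 carriers at 4.5 months (x axis) and at 19 months (y axis); filled points are past an adjusted p of 0.05 at 4.5 months. The called amino acid, metal and peptide carriers lie to the right, while on the y axis SLC3A2, SLC1A5 and SLC39A14 sit near 0.

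At 19 months the same stimulation called 0 of 119 carriers, beside 0% of all genes tested by edgeR, whose smallest adjusted p was 0.0691. An unadjusted p under 0.05 was reached by 8 carriers (6.72%) and by 4.46% of all genes, and DESeq2 called 14 genes and no carrier. Without Early ACT 1, edgeR called 29 genes (0.231%) and 0 carriers. SLC3A2 had 721, 773 and 800.2 CPM in Late CTL and 726, 797 and 775 in Late ACT, overlapping groups with a log2 fold change of 0.04 ± 0.13. SLC1A5 had 684, 769 and 674 and 645, 735 and 705 CPM (0.00 ± 0.13), and SLC39A14 had 30.2, 35.2 and 30.4 and 29.8, 30.8 and 33.5 CPM (0.01 ± 0.15). SLC7A1 had 105, 107 and 76.8 CPM in Late CTL and 102, 124 and 124 in Late ACT, a log2 fold change of 0.32 ± 0.16 that did not pass (adjusted p = 0.999).

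The difference between the 2 responses was tested as the interaction of time and stimulation, where a negative value means a smaller rise at 19 months. It called 3 carriers lower (2.52%) and 0 higher, beside 1.23% lower and 0.186% higher among all genes tested (1.41% in either direction). These were SLC3A2 (-0.95 ± 0.19, adjusted p = 0.00559), SLC39A14 (-0.88 ± 0.22, adjusted p = 0.0342) and SLC1A5 (-0.73 ± 0.18, adjusted p = 0.0429). SLC3A2 kept its call in all 17 alternatives, and its value without Early ACT 1 was -0.71, adjusted p = 9.64e-07. SLC39A14 lost its call with no filter on low counts or the replicate block and without Early CTL 1, Early CTL 2, Early CTL 3, Early ACT 3, Late CTL 1, Late CTL 2, Late ACT 1, Late ACT 2 or Late ACT 3 (adjusted p 0.0536 to 0.129), and SLC1A5 lost it with the replicate block and without Early CTL 1, Early CTL 2, Early CTL 3, Late CTL 1, Late CTL 2, Late ACT 1, Late ACT 2 or Late ACT 3 (adjusted p 0.0751 to 0.136). With the replicate block the adjusted p was 0.0603 for SLC39A14 and 0.0801 for SLC1A5. Among the negative values that did not pass were SLC19A2 (-0.90, adjusted p = 0.0503), SLC7A1 (-0.83, adjusted p = 0.0713) and SLC15A3 (-0.69, adjusted p = 0.0855). Positive values, none of which passed, reached 0.95 among ion carriers and 0.83 among metal carriers. Without Early ACT 1 the test called 10 carriers lower and 2 higher, beside 3.38% and 0.963% of the genes then tested (4.35% in either direction). SLC39A14 (-0.91, adjusted p = 0.00337) and SLC1A5 (-0.51, adjusted p = 0.000589) kept their calls. SLC19A2 (-1.07, adjusted p = 8.8e-06) and SLC15A3 (-0.56, adjusted p = 0.0135) were then among the lower ones. Leaving out Early CTL 2, Early CTL 3, Late CTL 2 or any 1 Late ACT library left 1 carrier called.

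The levels behind the interaction differ between the genes. SLC39A14 and SLC3A2 were already higher in Late CTL than in Early CTL, and their Late ACT levels overlapped those of Late CTL. SLC3A2 rose with time in unstimulated cells (0.51 ± 0.13, adjusted p = 0.00398) and fell with time in stimulated cells (-0.45 ± 0.13, adjusted p = 0.0101; -0.22, adjusted p = 0.0151 without Early ACT 1), the latter call lost with a fit of the compared groups alone (adjusted p 0.0618). The Early and Late ACT values of SLC3A2 overlapped. SLC1A5 had overlapping groups over time in unstimulated cells (0.14, adjusted p = 0.424) and fell in stimulated cells (-0.59 ± 0.13, adjusted p = 0.000916; -0.39, adjusted p = 4.32e-05 without Early ACT 1). SLC7A1 followed the same order, with 0.36, adjusted p = 0.0812 unstimulated and -0.47, adjusted p = 0.0219 stimulated, the latter lost with upper-quartile factors and without Early ACT 1 or Late ACT 1 (adjusted p 0.069 to 0.118). These time values share libraries with the stimulation values and are given only side by side.

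**Figure D4:**
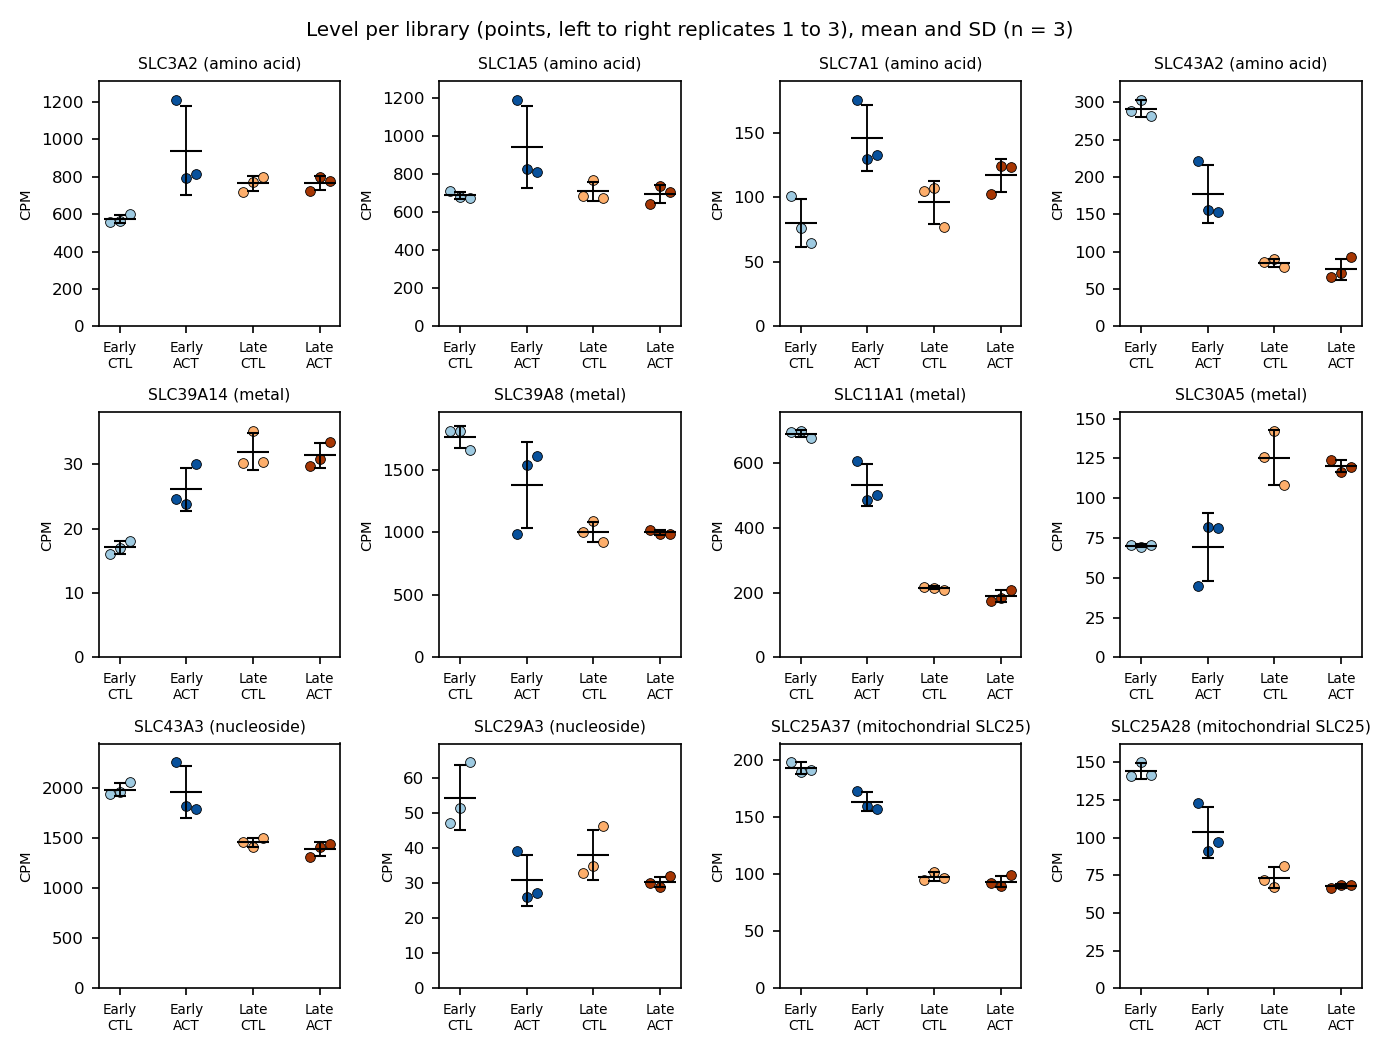
CPM in each library (points) with the mean and SD of 3 libraries for 12 carriers, by group (x axis); y axes start at 0 and differ between panels. Early ACT 1 is the highest Early ACT library for SLC3A2, SLC1A5 and SLC7A1 and the lowest for SLC39A8 and SLC30A5, and SLC11A1, SLC43A2 and SLC25A37 have every Late library below every Early one.

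The 4 rows whose symbol names no carrier were kept out of all counts. The row matched to SLC25A47, which the authors' deposited table names WARS (a tryptophan tRNA synthetase), had 341 to 347 CPM in Early CTL and 367 to 387 in Early ACT (early stimulation 0.40, adjusted p = 0.0136). The authors' deposited tables list it as lower with time, with log2 fold changes of -0.25 in unstimulated and -0.59 in stimulated cells. The row matched to SLC2A11, named MIF (a cytokine) in the name table, fell with time (-0.64, adjusted p = 0.00857, and -0.76, adjusted p = 0.00242). The scaffold SLC9A3R1 fell in unstimulated cells (-0.52, adjusted p = 0.0149), and SLC4A1AP, a nuclear adaptor protein, was not called in any comparison.

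Carriers and metal or ion handling genes under other symbols also moved in both directions. Of 45 such genes listed, 40 were found and 36 tested: 6 rose and 12 fell with time in unstimulated cells, beside 20.9% and 19.8% of all genes (median log2 fold change -0.07, beside 0.02 over all genes). In stimulated cells 0 rose and 10 fell (median -0.17), beside 19.1% and 19.7% of all genes. Early stimulation raised 3 and lowered 2, beside 4.57% and 2.66%, and late stimulation called 0. The lipid carrier MFSD2A rose with time in unstimulated cells (1.14) and with early stimulation (1.39). The transferrin receptor TFRC had values of 0.33 and 0.58 in the same comparisons (adjusted p = 0.0145 and 0.000522). Ferritin heavy chain FTH1, the iron store, had -0.47 and 0.23 (adjusted p = 0.00267 and 0.264), while the light chain FTL had 0.09 and 0.10 (adjusted p = 0.641 and 0.731). In the interaction of time and stimulation MFSD2A was the 1 listed gene called (-1.28, adjusted p = 0.000183), beside 1.41% of all genes in either direction. The Early ACT libraries had 163, 122 and 125 CPM of MFSD2A, with Early ACT 1 the highest. Values of these listed genes are given with all 12 libraries only.

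The authors' deposited tables of late against early libraries list 56 of the 119 carriers for unstimulated cells, 24 higher and 32 lower, and 43 for stimulated cells, 11 higher and 32 lower. Of these, 52 of the 56 and all 43 were also called by edgeR, beside 59 and 52 calls by edgeR in all, and every listed carrier had the same direction in both sources. Both sources rest on the same libraries, so the shared calls and directions are no independent support. In the authors' deposited table SLC11A1 had a log2 fold change of -1.58 and SLC43A2 of -1.67 in unstimulated cells.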

How the data were processed

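Per the labels' protocols, the 12 libraries of sorted macrophages were made with SMART-Seq v4 and Nextera XT kits; these keep no strand, so reads of overlapping antisense genes cannot be told apart. The submitters' processing notes name bcl2fastq and the build Mmul_8.0.1; aligner and counter: not given in the sources used here. The authors deposited whole-number counts per gene, without normalization. Their 2 deposited tables give a log2 fold change with its standard error, a test score and p-values of late against early libraries, per the file headers.

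Symbols came from row names (8 carriers), an Ensembl macaque name table (109) or only the authors' deposited tables (2). SLC7A5, SLC29A1, SLC30A1, SLC25A5 and SLC25A6 matched no row by name and were not analysed here. Members and lists were chosen with earlier results of these data known. Genes were named by rule: the 3 highest in each class, the 8 largest non-overlapping changes and the 3 smallest p per class, in each direction and comparison, all interaction calls, the threshold neighbours and all metal and nucleoside carriers; other genes named were chosen after their values were seen. edgeR 4.0.16 (R 4.3.3; TMM, filterByExpr, robust quasi-likelihood fit, 1 coefficient per group, all 12 libraries) was tested on simulated counts first. Group sizes of 3 allow no exact permutation p below 0.1. Alternatives were other scaling, no filter, a replicate block, the compared groups alone, DESeq2 1.42.0 and each library left out. Further ones were a mean of at least 2 or 10 CPM and, added after seeing the data, the 4 rows kept out. Promoter motifs were not searched, since no sequences were used here. Some carriers are counted but not reported by name here.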

Additional observations from a re-analysis of the deposited data

Results flagged for a closer look

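For 3 carriers the response to stimulation differed between 4.5 and 19 months by the test of the interaction (edgeR's quasi-likelihood test, Benjamini-Hochberg adjustment over 11826 genes). SLC3A2, the heavy chain of amino acid carriers, had an interaction of -0.95 (adjusted p = 0.00559), from 0.99 ± 0.14 at 4.5 months and 0.04 ± 0.13 at 19 months. SLC39A14, a metal importer, had -0.88 (adjusted p = 0.0342), from 0.89 ± 0.15 and 0.01 ± 0.15. SLC1A5, a glutamine exchanger, had -0.73 (adjusted p = 0.0429), from 0.73 ± 0.13 and 0.00 ± 0.13. SLC3A2 kept its call in all 17 alternatives. SLC39A14 lost it in 11 and SLC1A5 in 9, the replicate block among them (adjusted p = 0.0603 and 0.0801). All 3 early responses were higher in 3 of 3 stimulated libraries than in any unstimulated one, and at 19 months the groups of all 3 overlapped.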

How the results depend on the processing

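Of 595 results (119 carriers in 5 comparisons), 128 passed the threshold, 87 of them in every alternative, none reversed, and 65 that had not passed did so in at least 1 alternative. Upper-quartile scaling gave 24 higher carriers in late against early stimulated cells. For early stimulation, a fit of the compared groups alone gave 6 higher and 1 lower and the replicate block 2 lower; leaving out 1 library gave 6 to 20 higher and 1 to 8 lower. For the interaction, DESeq2 called 7 lower and the replicate block 1, and leaving out 1 library gave 1 to 10 lower and 0 to 2 higher. The cause of these shifts was not tested. Leaving out 1 library gave 19 to 29 higher and 29 to 43 lower in unstimulated and 11 to 15 higher and 31 to 39 lower in stimulated cells over time, and 0 for late stimulation. With the replicate block the other counts were 24 higher and 33 lower, 13 and 37, and 10 higher for early stimulation. The deviations of same-numbered libraries correlated between -0.261 and 0.284. These values cannot decide whether same-numbered libraries share an animal, since technical differences between libraries, possible for Early ACT 1, enter them too. With the 4 rows kept out added back, counts were 24 and 38, 14 and 40, and 11 and 4. Of 2670 counts by class, 176 moved by over 1.5 times. In the shallowest library, with 3910680 counts, 5 CPM is 19.6 counts, which limits the precision for the lowest carriers.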
